A study of Mus musculus with 8 samples.

Results

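The transcripts described here encode the channels and carriers through which mitochondria exchange metabolites and calcium with the cytosol. The set comprised 9 genes, taken by symbol: the outer membrane porins Vdac1, Vdac2 and Vdac3, the ADP/ATP carriers Slc25a4 and Slc25a5, the matrix cyclophilin gene Ppif, and the calcium uniporter genes Mcu, Micu2 and Smdt1. All 9 were among the 55401 genes listed for each dish, and all 9 were among the 12122 genes abundant enough to test (TPM of at least 1 in at least 4 dishes). AML12 cells, an established hepatocyte line from mouse liver, were kept for 1 h with or without pulses of an extremely low frequency weak magnetic field, ELF-WMF. There were 4 exposed dishes under the pulses and 4 control dishes in the same setup without them. Per the authors, copper plates above and below the dish lowered the static field there but did not remove it. The pulses lasted 4 ms, peaked at 100 mG and were given at frequencies stepping up from 1 to 8 Hz. All dishes came from 1 batch of cultured cells. Exposed and control dishes were kept in 2 separate incubators, the control one without a running coil, so the field and the incubator cannot be told apart. The labels do not say whether the dishes of a condition were otherwise handled separately, and p-values measure only the spread between these dishes.

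Porins, also called voltage-dependent anion channels, let ATP, ADP, phosphate and calcium through the outer membrane. The ADP/ATP carriers of the inner membrane then exchange matrix ATP for cytosolic ADP. Calcium crosses the inner membrane through the uniporter, a pore whose opening is set by EF-hand gatekeeper proteins. A sustained calcium load can open the permeability transition pore, which cyclophilin D sensitises and to which the ADP/ATP carriers and the ATP synthase have been assigned as candidate components. Hepatocytes meet calcium signals released from the endoplasmic reticulum, and their mitochondria take up part of that calcium where the organelles touch.

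Messenger RNA was measured as TPM, in which the reads of a gene are divided by its length and every dish is scaled to the same total. TPM therefore allows levels to be compared between genes, but it keeps no sequencing depth, so the counting error behind each value is unknown. Each dish held 19386 to 20114 genes with any signal (TPM over 0). Transcripts of the mitochondrial genome took 8.94 ± 0.34% of the TPM in control dishes and 7.04 ± 0.76% in exposed dishes (SD, n = 4 each), with no overlap between the groups. Because every dish has the same total, this lower share moves with higher TPM of other genes, and values rescaled without the mitochondrial transcripts and their nuclear copies are given after the single genes. All 11 hepatocyte markers examined reached a TPM of 1 in every dish, with a summed level of 4896 to 5113 in control and 5202 to 5450 in exposed dishes. Most of that sum was Krt8 (2206 to 2280 and 2305 to 2431 TPM) and Krt18 (1825 to 1963 and 1992 to 2071 TPM), keratins that other epithelia share. Alb, the gene of serum albumin, lay at 52.55 to 58.2 TPM in control and 46.1 to 53.04 TPM in exposed dishes, and Cebpa, a transcription factor of hepatocytes, at 8.24 to 11.1 and 7.35 to 8.73 TPM. The part of these markers in the results was not tested. Of the fibroblast, endothelial, macrophage and striated muscle markers, 0 of 4, 0 of 3, 1 of 4 (Cd68) and 1 of 4 (Tnnt2) reached a TPM of 1 in every dish. Cd68 lay at 1.45 to 2.21 TPM in control and 1.05 to 1.64 TPM in exposed dishes. Tnnt2 lay at 66.56 to 72.11 and 66.16 to 81.67 TPM, above the levels of Alb. The endothelial gene Cdh5 and the macrophage gene Adgre1 were listed at 0 in every dish. In bulk RNA, fewer cells with a transcript and less of it per cell cannot be told apart.

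Since several members are close relatives of each other, the first question was how well short reads can separate them. Coding sequences were taken from the GENCODE M21 transcripts on GRCm38. Slc25a4 and Slc25a5 were identical at 77.48% of 897 aligned coding bases. Their most alike stretch of the length of a read (150 bases) is shown here, coding bases 27 to 176 in both genes, 5′ to 3′ on the coding strand, with the 25 bases that differ in capitals.
Slc25a4: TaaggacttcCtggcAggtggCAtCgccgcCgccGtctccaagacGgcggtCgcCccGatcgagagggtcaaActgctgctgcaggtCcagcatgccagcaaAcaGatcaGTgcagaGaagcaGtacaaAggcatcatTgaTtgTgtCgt
Slc25a5: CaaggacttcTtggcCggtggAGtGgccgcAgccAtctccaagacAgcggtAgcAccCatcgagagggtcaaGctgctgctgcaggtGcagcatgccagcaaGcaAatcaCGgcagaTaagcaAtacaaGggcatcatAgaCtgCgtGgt
Over their whole coding sequences, the longest run of bases shared by the carriers was 20.

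The porins were further apart. Vdac1 and Vdac2 shared 70.77% of the aligned coding bases, Vdac2 and Vdac3 71.48%, and Vdac1 and Vdac3 65.96%. In the stretch shown, coding bases 439 to 588 of Vdac1 and Vdac3 and 475 to 624 of Vdac2, 96 of 150 bases were the same in all 3 porins, and capitals mark the 54 that were not.
Vdac1: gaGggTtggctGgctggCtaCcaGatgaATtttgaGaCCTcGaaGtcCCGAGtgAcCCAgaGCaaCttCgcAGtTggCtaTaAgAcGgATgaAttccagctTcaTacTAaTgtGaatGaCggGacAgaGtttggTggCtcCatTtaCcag
Vdac2: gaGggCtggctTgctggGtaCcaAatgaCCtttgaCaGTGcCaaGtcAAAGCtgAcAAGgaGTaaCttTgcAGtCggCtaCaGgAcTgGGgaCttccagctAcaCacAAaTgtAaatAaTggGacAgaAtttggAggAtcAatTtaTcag
Vdac3: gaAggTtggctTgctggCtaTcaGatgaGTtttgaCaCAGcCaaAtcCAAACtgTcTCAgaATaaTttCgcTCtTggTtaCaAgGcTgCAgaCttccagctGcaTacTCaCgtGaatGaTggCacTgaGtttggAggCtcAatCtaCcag
Any pair of porins differed at 35 bases or more in every window of 150 bases. A read of this length from the coding sequence therefore carried many bases that tell 1 porin, or 1 carrier, from another.

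Pseudogenes were closer to the members than the members were to each other. BLAST found 6 listed transcripts with at least 95% identity to a member over at least 80% of their own length. Vdac3-ps1, on chromosome 13 (18030741 to 18031593), matched Vdac3 at 99.531%, differed at 4 of 852 aligned coding bases and left 341 of 703 read-length windows (48.51%) without a difference. It was listed at 1.53 to 2.94 TPM. Gm5560, on chromosome 5 (97264828 to 97265719), matched Slc25a5 at 98.309% and was listed at 2.64 to 4.01 TPM, and each of its 748 windows held a difference. The copies together amounted to 1.13% of the level of Vdac3, 0.298% of that of Slc25a5 and 0.271% of that of Vdac2. Adding them to their member left the number of members with an unadjusted p under 0.05 at 5, all higher in exposed dishes. With copies added, 1451 of 12122 tested genes had such a p and were higher. Each window stands for a single read within the coding sequence, whereas the reads came in pairs, so the share of windows is not that of ambiguous read pairs. How the reads of Vdac3 and Vdac3-ps1 were shared out in counting was not tested, and the level of Vdac3 is uncertain to that extent. No copy of this kind was found for Vdac1, Slc25a4, Ppif, Mcu, Micu2 or Smdt1.

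The members fell into an abundant and a less abundant group, and every gene lay above the next in the order in 8 of 8 dishes. Slc25a5 had a mean of 1475 TPM over the 8 dishes, rank 96 among the 12122 tested genes. Vdac2 followed at 365.2 TPM, Slc25a4 at 322.8, Vdac1 at 295.5 and Vdac3 at 207.8, with ranks of 383, 434, 478 and 689. The uniporter genes and Ppif were lower: Smdt1 lay at 50.96 TPM, Mcu at 44.9, Ppif at 27.1 and Micu2 at 22.2, with ranks of 3250, 3641, 5318 and 6016. The highest level exceeded the lowest 66.6-fold. Of the 8 neighbouring pairs in this order, 6 had ranges that did not touch. The ranges overlapped for Slc25a4 (302.55 to 340.84 TPM) with Vdac1 (279.27 to 314.28 TPM) and for Smdt1 (46.66 to 53.98 TPM) with Mcu (43.28 to 48.32 TPM).

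**Figure D1:**
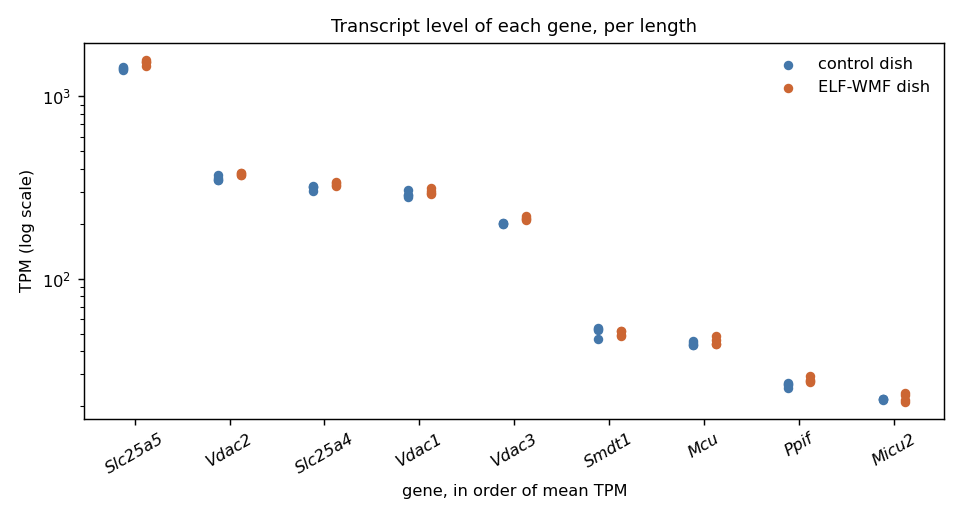
TPM of the 9 genes on a log scale, in order of mean level, with 1 point for each control (blue) or exposed (orange) dish. Slc25a5 stands 4.04-fold above Vdac2, and Vdac3 stands 4.08-fold above Smdt1, while the spread over dishes is small beside these steps.

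The comparison of exposed with control dishes used limma on log2(TPM + 1), with Benjamini-Hochberg adjustment over the 12122 tested genes. No member had an adjusted p under 0.05. The same was true of every tested gene (0 of 12122, 0%), although 1894 genes (15.6%) had an unadjusted p under 0.05. Among the members, 5 of 9 had an unadjusted p under 0.05, all of them higher in exposed dishes, against 1451 genes (12%) with such a p in that direction among all tested genes. The groups did not overlap for 3 of 9 members, all with the exposed dishes above, against 8.01% of all tested genes. In all, 8 of 9 members had the higher mean in exposed dishes, as had 63.7% of tested genes. Their median difference was 0.072 on the log2 scale, and the median of all tested genes was 0.026. The direction of the all-gene median and the size of the members' median depended on the scaling, as described after the single genes.

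**Figure D2:**
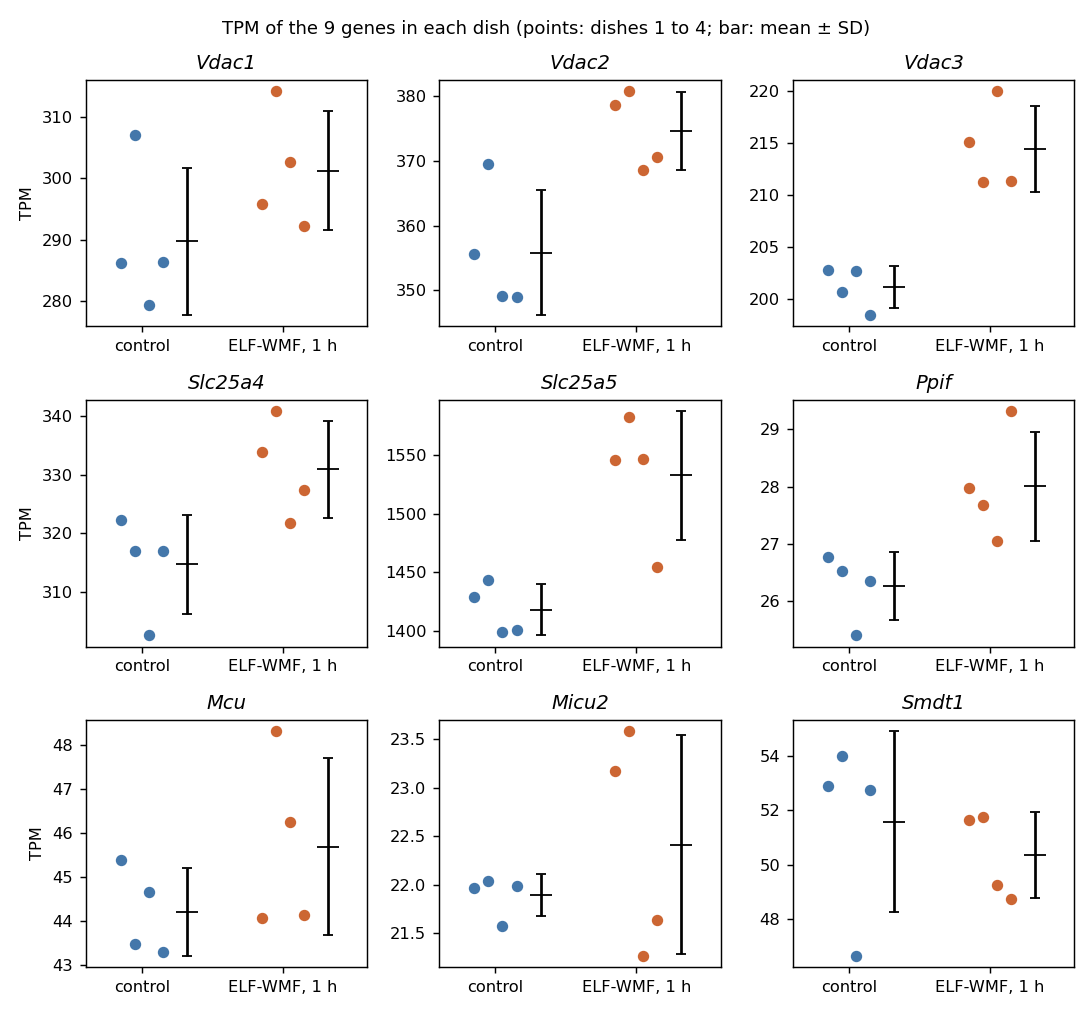
TPM of each gene in the 4 control and 4 exposed dishes, with mean ± SD beside the points and an axis range of its own for each gene that does not start at 0. The exposed dishes lie wholly above the control dishes for Vdac3, Slc25a5 and Ppif, and the groups overlap for the other 6 genes.

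Vdac1 (chr11:52360860-52389397, GRCm38, plus strand), the best studied porin and a docking site for hexokinase, was listed at 286.12, 307.13, 279.27 and 286.27 TPM in control dishes 1 to 4 and at 295.85, 314.28, 302.71 and 292.13 TPM in exposed dishes 1 to 4. The groups overlapped, since control dish 2 exceeded 3 of the exposed dishes. The means of 289.7 ± 12.1 and 301.2 ± 9.73 TPM (SD, n = 4 each) differed by 0.06 on the log2 scale (SE 0.03, 95% interval −0.02 to 0.13, limma adjusted p = 0.480; exact two-sided permutation p = 0.171). With a dish left out it ran from 0.036 (exposed dish 2) to 0.085 (control dish 2).

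Vdac2 (chr14:21825238-21845879, plus strand), the porin known for holding the pro-apoptotic protein BAK at the outer membrane, read 355.64, 369.61, 349.14 and 348.91 TPM in control and 378.61, 380.85, 368.60 and 370.56 TPM in exposed dishes. Here 3 of 4 exposed dishes lay above the highest control dish. The difference was 0.07 on the log2 scale (SE 0.03, 95% interval 0.02 to 0.13), or 5.29% of the control mean, with a limma adjusted p of 0.206 and an exact permutation p of 0.0571.

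Vdac3 (chr8:22577075-22593813, minus strand), the least abundant porin, read 202.80, 200.69, 202.67 and 198.47 TPM in control and 215.13, 211.21, 219.98 and 211.35 TPM in exposed dishes. Its dishes were close to each other within a group (201.2 ± 2.04 and 214.4 ± 4.13 TPM), and the groups did not overlap. The difference of 0.09 on the log2 scale (SE 0.02, 95% interval 0.04 to 0.14) had the smallest unadjusted limma p of the 9 genes, 0.00258, and an adjusted p of 0.131. The exact permutation p was 0.0286, the smallest that 4 dishes against 4 can give over 70 assignments.

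Slc25a5 (chrX:36795651-36798807, plus strand), the ADP/ATP carrier of proliferating and many epithelial cells, showed the greatest difference of the 9. It read 1428.47, 1443.69, 1398.76 and 1400.81 TPM in control and 1546.24, 1582.92, 1547.04 and 1454.55 TPM in exposed dishes. All 4 exposed dishes lay above all control dishes, but exposed dish 4 was only just above control dish 2. The means of 1418 ± 21.9 and 1533 ± 54.8 TPM stood 8.09% apart, a log2 difference of 0.11 (SE 0.03, 95% interval 0.05 to 0.18, limma adjusted p = 0.136; exact permutation p = 0.0286).

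Slc25a4 (chr8:46206797-46211284, minus strand), the carrier that prevails in heart and skeletal muscle, read 322.30, 317.05, 302.55 and 316.96 TPM in control and 333.84, 340.84, 321.73 and 327.32 TPM in exposed dishes. Exposed dish 3 fell within the control range and the other exposed dishes lay above it. The log2 difference was 0.07 (SE 0.03, 95% interval 0.01 to 0.13, limma adjusted p = 0.249; exact permutation p = 0.0571).

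Ppif (chr14:25694154-25700468, plus strand), which encodes cyclophilin D, read 26.76, 26.52, 25.39 and 26.35 TPM in control and 27.97, 27.67, 27.05 and 29.32 TPM in exposed dishes. The groups did not overlap, and exposed dish 4, which was the lowest exposed dish for Slc25a5, was the highest for Ppif. The difference was 0.09 on the log2 scale (SE 0.04, 95% interval 0.01 to 0.17, limma adjusted p = 0.279; exact permutation p = 0.0286).

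None of the 3 uniporter genes had an unadjusted limma p under 0.05, against 15.6% of all tested genes, and their intervals included 0. With so few genes, a count of 0 is near that share. Mcu (chr10:59446984-59616692, minus strand), the pore subunit, read 45.39, 43.48, 44.65 and 43.28 TPM in control and 44.07, 48.32, 46.25 and 44.13 TPM in exposed dishes. The groups overlapped, with exposed dishes 2 and 3 above the control range. The log2 difference was 0.05 (SE 0.04, 95% interval −0.04 to 0.13, limma adjusted p = 0.603; exact permutation p = 0.229), and 0.02 without exposed dish 2.

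Micu2 (chr14:57916261-57999262, minus strand), a gatekeeper of the pore, read 21.97, 22.04, 21.58 and 21.99 TPM in control and 23.17, 23.58, 21.27 and 21.64 TPM in exposed dishes. Exposed dishes 1 and 2 lay above the control dishes, and exposed dish 3 lay below them all. The log2 difference was 0.03 (SE 0.04, 95% interval −0.06 to 0.12, limma adjusted p = 0.778; exact permutation p = 0.400). It was 0.007 without exposed dish 2, 0.016 without exposed dish 1, 0.047 without exposed dish 4 and 0.055 without exposed dish 3.

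Smdt1 (chr15:82338959-82349091, plus strand) encodes EMRE, the small subunit that links pore and gatekeepers. It read 52.90, 53.98, 46.66 and 52.73 TPM in control and 51.65, 51.74, 49.27 and 48.73 TPM in exposed dishes, and was the 1 member with a lower mean after exposure. Control dish 3 was far below the other control dishes. Without this dish, singled out here by its low value, all 4 exposed dishes lay below the remaining controls. In that setting they did so for 310 of 12023 tested genes. The log2 difference was −0.03 with all dishes (SE 0.05, 95% interval −0.14 to 0.07, limma adjusted p = 0.804; exact permutation p = 0.600) and −0.08 without control dish 3 (unadjusted limma p = 0.0523). With another dish left out it was as small as −0.0098 (control dish 2).

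These differences depended on how the dishes were scaled. Divided by the upper quartile, scaled by the median of ratios, or rescaled without mitochondrial transcripts and their nuclear copies, the dishes gave all-gene medians of −0.0053, −0.0012 and −0.019 on the log2 scale, against 0.026 on deposited TPM. Of the genes with an unadjusted p under 0.05, 76.6% were higher in exposed dishes on deposited TPM, and 42.4%, 47.1% and 29.7% under the other scalings. The members' median was 0.039, 0.043 and 0.025, and 7, 8 and 6 of 9 had the higher mean in exposed dishes, with Micu2 just below 0 under the first and Mcu and Micu2 just below 0 under the last. Of the 9 members, 1, 2 and 1 had an unadjusted limma p under 0.05 and were higher in exposed dishes, against 4.85%, 5.54% and 3.26% of all genes under the same scaling. The groups did not overlap for 0 of 9 members under any of the other scalings, where 7.41%, 7.63% and 6.96% of all genes did not overlap.

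Slc25a5 was the member with an unadjusted p under 0.05 under each scaling, with log2 differences of 0.08, 0.08 and 0.06 (limma adjusted p = 0.367, 0.330 and 0.358). Rescaled without mitochondrial transcripts, its TPM ran from 1626 to 1675 in control and from 1653 to 1758 in exposed dishes, with 3 of 4 exposed dishes above the highest control dish. Vdac3 differed by 0.06, 0.06 and 0.04 (limma adjusted p = 0.447, 0.413 and 0.568), and 3 of 4 exposed dishes exceeded the controls after the last rescaling. The log2 differences of Vdac2, Slc25a4 and Ppif after that rescaling were 0.03, 0.02 and 0.04, with intervals that included 0, against 0.07, 0.07 and 0.09 on deposited TPM. Vdac1 stood at 337.2 ± 13.0 TPM in control and 339.2 ± 7.90 TPM in exposed dishes after that rescaling, and Mcu at 51.4 ± 1.28 and 51.4 ± 1.86 TPM. Smdt1 had the lower mean in exposed dishes under every scaling, at 60.01 ± 3.57 and 56.7 ± 1.24 TPM after the rescaling, with overlapping dishes.

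**Figure D3:**
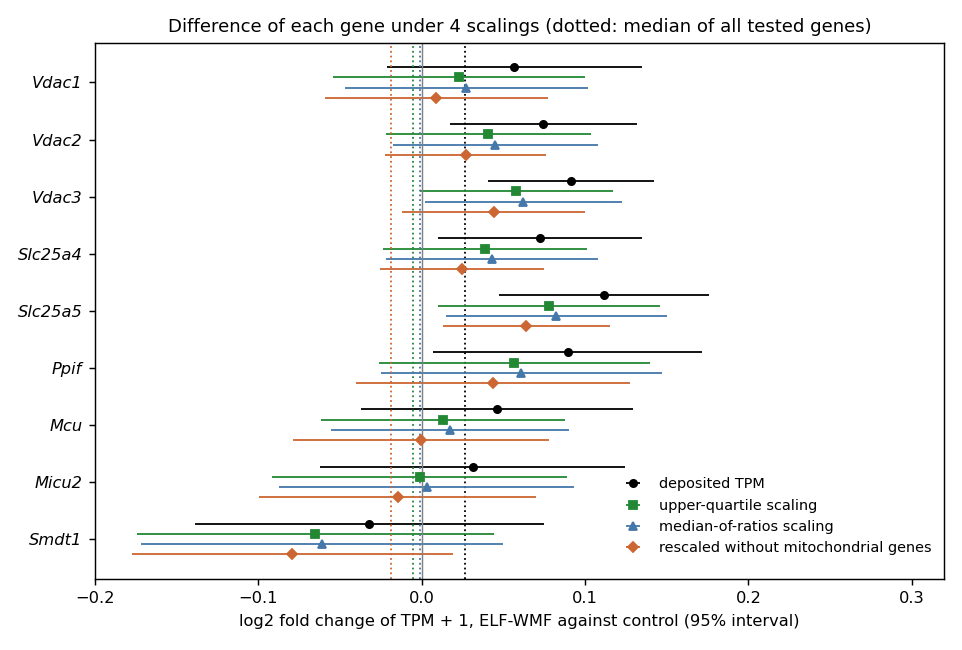
Log2 fold change of each gene, exposed against control, with 95% limma intervals under 4 scalings, and dotted lines at the median of all tested genes. Intervals of Slc25a5 stay above 0 under each scaling, those of Vdac3 do so on deposited TPM and median-of-ratios values, and those of Mcu, Micu2 and Smdt1 include 0 throughout.

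The abundance of the members was set beside these values in a description chosen after the data were seen. Genes other than mitochondrial ones with a mean of 200 to 2000 TPM, the range that holds all 5 porin and carrier genes, numbered 654 on deposited TPM. Their median log2 difference was 0.06, 90.2% were higher in exposed dishes and 31.3% had exposed dishes wholly above the controls. Of the 5 porin and carrier genes, 5 were higher and 2 were wholly above. At 10 to 100 TPM, the range of Ppif and the uniporter genes, the median of 6801 genes was 0.03, 68.0% were higher and 7.16% lay wholly above. Of the 4 members in that range, Ppif alone lay wholly above.

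Ratios within a dish do not depend on its scaling, and they showed that the make-up of the porins and carriers was close in both conditions. Vdac1, Vdac2 and Vdac3 made up 34.2 ± 0.61%, 42.0 ± 0.12% and 23.8 ± 0.64% of the summed porin TPM in control dishes. In exposed dishes the shares were 33.8 ± 0.64%, 42.1 ± 0.53% and 24.1 ± 0.57%, and the dishes of both conditions overlapped for each porin. Slc25a5 made up 81.8 ± 0.32% of the summed carrier TPM in control and 82.2 ± 0.47% in exposed dishes, with overlap. The summed carriers, which do depend on scaling, lay at 1751, 1761, 1701 and 1718 TPM in control and at 1880, 1924, 1869 and 1782 TPM in exposed dishes, with no overlap. The summed porins overlapped, at 846.7 ± 21.3 and 890.3 ± 13.2 TPM.

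**Figure D4:**
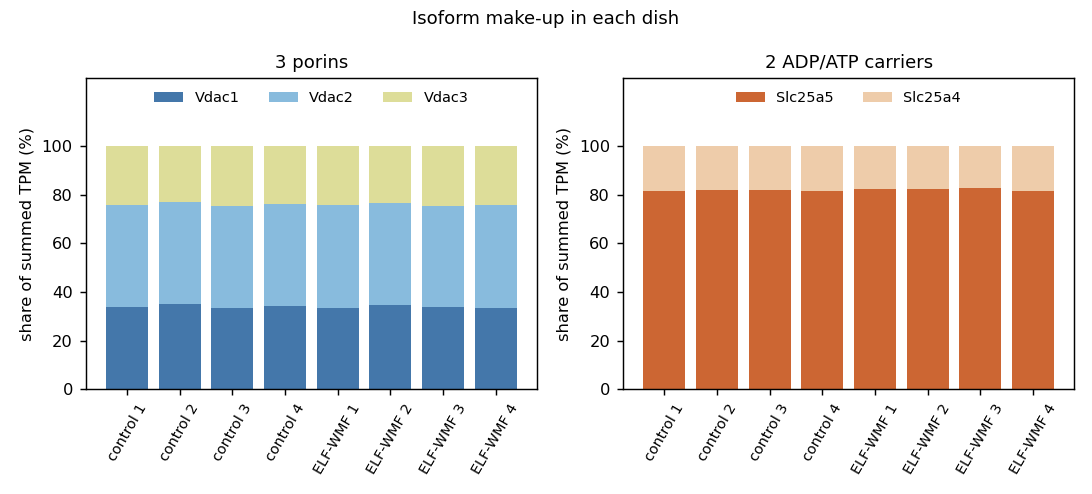
Share of each porin in the summed porin TPM (left) and of each ADP/ATP carrier in the summed carrier TPM (right) as stacked bars, 1 bar for each dish. Vdac2 holds 41.4 to 42.6% of the porin TPM and Slc25a5 holds 81.5 to 82.8% of the carrier TPM in every dish.

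Within the uniporter, the ratios also overlapped between conditions. Mcu stood at 0.860 ± 0.068 times Smdt1 in control and 0.908 ± 0.039 times in exposed dishes. Micu2 stood at 0.496 ± 0.014 times Mcu in control and 0.491 ± 0.027 times in exposed dishes. Between complexes, Slc25a5 stood at 27.003, 26.74, 29.98 and 26.57 times Smdt1 in control and at 29.94, 30.59, 31.399 and 29.85 times in exposed dishes. Control dish 3 lay within the exposed range of this ratio and the other control dishes lay below it.

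Single dishes were the highest or lowest of their condition for many members at once. Exposed dish 2 was the highest exposed dish for 7 of 9 members and had the lowest share of mitochondrial transcripts, 5.99%. Control dish 3 was the lowest control dish for 6 of 9 members and had the highest such share, 9.42%. How often each dish was highest or lowest over all genes was not counted. The median-of-ratios factor, which reflects all genes, was 1.034 in exposed dish 2 and 0.990, 1.009 and 1.009 in exposed dishes 1, 3 and 4. For control dish 3 it was 0.995, and for control dishes 1, 2 and 4 it was 0.983, 0.988 and 0.996. The summed TPM of the 9 genes was 2671 to 2784 in control and 2800 to 2981 in exposed dishes. Over the 8 dishes, which share conditions and incubators, Pearson's r of log2(TPM + 1) for the 36 pairs of members ran from −0.33 (Vdac3 with Smdt1) to 0.87 (Vdac2 with Slc25a5), with a median of 0.50. This r includes the difference between conditions. Taken on deviations from the mean of each condition, r ran from −0.58 (Vdac3 with Ppif) to 0.87 (Slc25a4 with Smdt1), with a median of 0.36. Both kinds of r were taken on deposited TPM, so the scaling of each dish enters them. No median r over other pairs of genes was computed for comparison.

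For each member except Micu2, the tested gene outside the set with the most similar pattern was taken by Pearson's r of log2(TPM + 1) over the same 8 dishes. These genes were Comtd1 for Vdac1 (r = 0.98), Fth1 for Vdac2 (0.97), M6pr for Vdac3 (0.99), Raly for Slc25a4 (0.99) and Vcp for Slc25a5 (0.99). They were Noc2l for Ppif (0.98), Eif2ak1 for Mcu (0.98) and Gm4824 for Smdt1 (0.96). Each is the best of 12113 genes over few dishes, and its likeness is a description. Comtd1 overlaps Vdac2 by 25 bases on the opposite strand. The other genes overlapping a member had a mean of at most 0.064 TPM.

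The wider pathway was described through a list of 39 further genes in 7 roles, of which 35 were abundant enough to test. None had a limma adjusted p under 0.05 (smallest 0.142), 9 had an unadjusted p under 0.05, all higher in exposed dishes (12% of all tested genes), and 32 of 35 had the higher mean there (63.7% of all tested genes). The exposed dishes lay wholly above the controls for 6 of the 35, against 8.01% of all tested genes. The median log2 difference was 0.048, beside 0.026 for all tested genes. Rescaled without mitochondrial transcripts, 0 of the 35 had an unadjusted p under 0.05 in either direction. Under that scaling 1352 of 12296 genes had such a p, 401 of them higher and 951 lower in exposed dishes.

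Among regulators of the uniporter, 0 of 6 tested genes had an unadjusted limma p under 0.05, against 15.6% of all tested genes. Afg3l2, a protease subunit that degrades unassembled EMRE, lay at 42.4 ± 0.79 TPM in control and 44.3 ± 1.29 TPM in exposed dishes. Mcub, the paralog of Mcu that lowers its conductance, was listed at no more than 0.22 TPM in any dish and was not tested. Of the 3 genes for calcium exit, the most abundant were Ghitm (369.0 ± 11.5 and 375.1 ± 12.8 TPM) and Letm1 (54.0 ± 2.93 and 56.3 ± 3.04 TPM). Of these 3 genes 0 had such a p, beside the same 15.6% of all tested genes.

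Of the genes that bring calcium from the endoplasmic reticulum to the porins, Hspa9 had an unadjusted limma p under 0.05. It encodes mortalin, the chaperone that ties VDAC1 to the inositol trisphosphate receptor, and lay at 446.5 to 470.9 TPM in control and 473.3 to 499.3 TPM in exposed dishes, with no overlap (log2 difference 0.10, limma adjusted p = 0.142, and 0.05 after the rescaling). The receptor genes Itpr1, Itpr2 and Itpr3 had unadjusted limma p-values of 0.548, 0.397 and 0.395.

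Among 7 partners of the porins, Bid, whose product activates BAX and BAK, had an unadjusted p under 0.05, at 117.3 ± 2.37 and 125.4 ± 2.54 TPM with no overlap (log2 difference 0.10, limma adjusted p = 0.144, and 0.05 after the rescaling). Bax (392.6 ± 6.43 and 404.2 ± 16.0 TPM) and Tspo, a cholesterol-binding outer membrane protein (332.1 ± 3.62 and 334.0 ± 12.4 TPM), overlapped between conditions. Of the 4 genes that insert porins into the outer membrane, Samm50 (68.1 ± 3.30 and 73.0 ± 3.18 TPM) and Mtx1 (104.2 ± 2.87 and 111.2 ± 4.69 TPM) had such a p, and the dishes overlapped for both. Tomm40, the entry channel, lay at 177.2 ± 8.66 and 182.7 ± 6.38 TPM.

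Of 5 ATP synthase and protease genes discussed as parts of the transition pore, Atp5po, the subunit to which cyclophilin D binds (Atp5o in the deposited tables), lay at 230.8 ± 7.99 and 250.0 ± 8.36 TPM (log2 difference 0.11, limma adjusted p = 0.161). Atp5mc1, a c-ring gene (Atp5g1 in the tables), lay at 322.0 ± 5.39 and 335.4 ± 6.31 TPM. The dishes overlapped for neither gene, but for Atp5po the highest control dish (240.17 TPM) lay just below the lowest exposed dish (240.39 TPM). After the rescaling the log2 differences of Atp5po and Atp5mc1 were 0.07 and 0.01, against 0.11 and 0.06 on deposited TPM. Of the 4 tested genes for nucleotide and phosphate exchange, Slc25a3, the phosphate carrier that works beside the ADP/ATP carriers, lay at 546.6 ± 16.0 and 572.5 ± 13.8 TPM and had an unadjusted p under 0.05. The germline ADP/ATP carrier Slc25a31 and the mitochondrial creatine kinases Ckmt1 and Ckmt2 were below the limit for testing, at no more than 0.84 TPM in any dish.

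**Figure D5:**
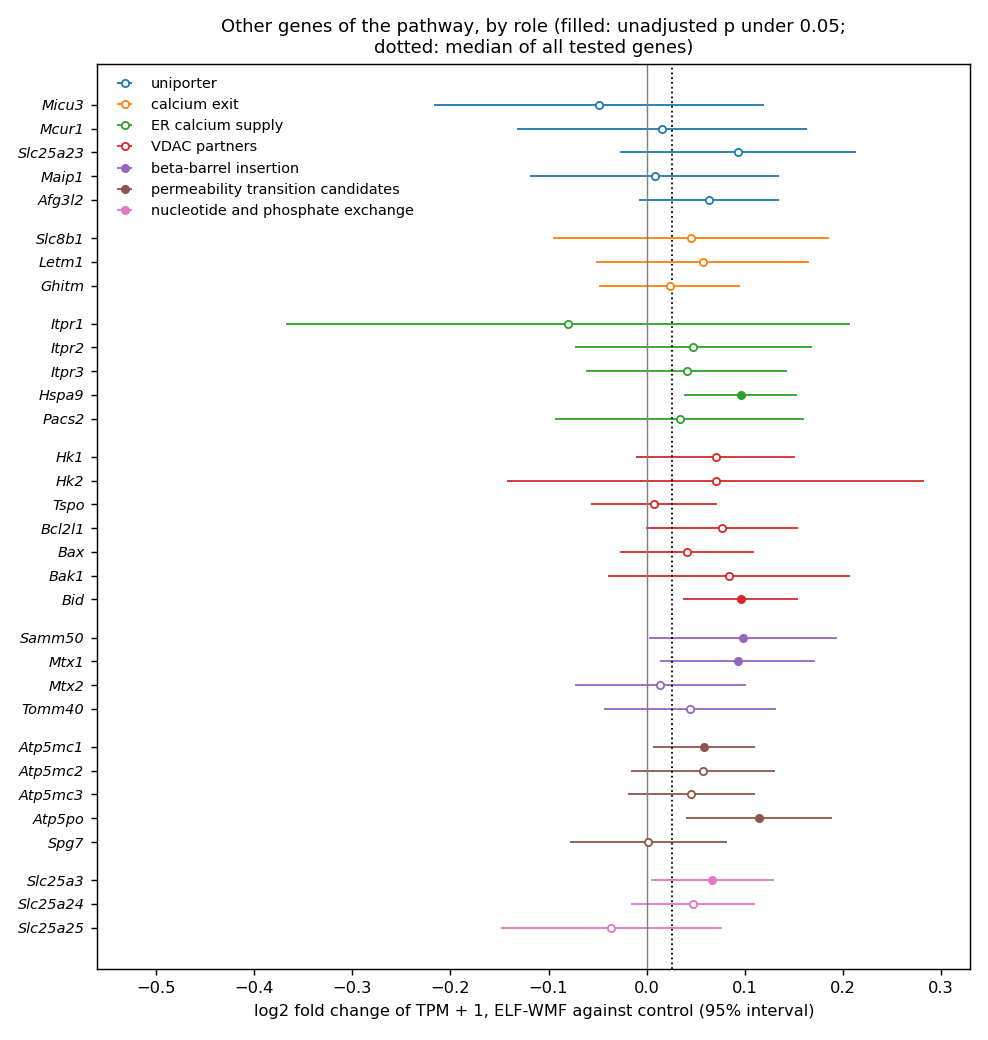
Log2 fold change of 32 of the 35 tested pathway genes, exposed against control on deposited TPM, with 95% limma intervals, coloured by role and filled where the unadjusted p is under 0.05. The 7 filled points all lie above 0, none of them among the uniporter or calcium exit genes, and the dotted line marks the median of all tested genes, 0.026.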

How the data were processed

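RNA of 8 dishes of AML12 cells (4 control, 4 exposed) had been sequenced by the authors with a stranded poly(A) kit as paired reads of 150 bases. The authors deposited TPM, 1 table of 55401 genes per dish. Per the labels, the processing notes name mm10, Trimmomatic 0.39, STAR 2.7.4a and RSEM 1.3.3. The annotation release and the strand setting of counting are not given in the sources used here. TPM keeps no depth, so no count test, counting interval or detection floor was computed.

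Genes with TPM of at least 1 in at least 4 dishes (12122) were fitted as log2(TPM + 1) by limma 3.58.1 under R 4.3.3 (lmFit and trended eBayes), and p-values were adjusted by Benjamini-Hochberg over all of them, with a threshold of 0.05. A fold change on this scale understates that of low genes. For single genes, an exact two-sided permutation test over 70 assignments was added. Members were matched by symbol, positions and coding sequences came from GENCODE M21 on GRCm38 (55141 identifiers matched), and copies were sought with BLAST 2.17.0. Replicate numbers were checked for pairing. Scaling, filter, pseudocount, trend, replicate block, added copies and each dish left out were alternatives. The members and lists were chosen with earlier results of these data known. Named were all 9 members, each pathway gene with an unadjusted p under 0.05, otherwise at most the 2 most abundant of each role (the Itpr genes and the genes below the limit for testing were named in addition, after their values were seen), the gene most like each member, and the copies. Some genes this rule covers are not reported here, though counts over the lists include them.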

Additional observations from a re-analysis of the deposited data

Results flagged for a closer look

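Dixon's criterion, which sets a gap against the range of the values, was applied to 60 sets of 4 values. By it, 4 of them held a dish apart from the rest of its condition. Chance alone would give about 3 in independent sets. Some of these sets share values, as do Smdt1 and the ratio of Slc25a5 to Smdt1. For Smdt1, control dish 3 lay at 46.66 TPM and the other control dishes at 52.73 to 53.98 TPM. For Micu2, the same dish lay at 21.58 TPM and the others at 21.97 to 22.04 TPM. The ratio of Slc25a5 to Smdt1 in that dish was 29.98, against 26.57 to 27.003 in the other control dishes. For Samm50, control dish 1 lay at 73.03 TPM and the others at 66.10 to 66.95 TPM.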

How the results depend on the processing

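No member had a limma adjusted p under 0.05 in any of 17 alternatives (smallest 0.127, for Vdac3). The direction was kept in all but 3 of 153 values, but many of these could not differ from the main estimate. The filters, the fit without a trend and the replicate block leave a member's difference unchanged, as do added copies for members without a copy. The 3 reversals came from rescaling: Mcu became −0.00056 without mitochondrial transcripts, and Micu2 became −0.015 there and −0.0011 after upper-quartile scaling. Over all tested genes, 0 were called on deposited TPM and 1 with TPM of at least 1 in every dish, without a trend, or under each of the 3 other scalings, and 0 to 6 with a dish left out (6 without exposed dish 2). Members with an unadjusted p under 0.05 numbered 5 on deposited TPM, 2 by median of ratios, 1 by upper quartile and 1 without mitochondrial transcripts, and 3 to 5 with a dish left out (3 without control dish 3 or exposed dish 1, where 1238 of 12023 and 1627 of 12050 genes had such a p and were higher). Members without overlap numbered 3, 0 under each of these scalings, and 3 to 5 with a dish left out (5 without control dish 2 or exposed dish 3, all higher, where the exposed dishes lay wholly above for 1216 of 12037 and 1304 of 12055 genes, against 971 of 12122 with all dishes). The members' median of 0.072 became 0.025 without mitochondrial transcripts and 0.054 to 0.085 with a dish left out. Pathway genes with an unadjusted p under 0.05 numbered 9, and 4, 3 and 0 under median of ratios, upper quartile and without mitochondrial transcripts. With a dish left out they numbered 5 to 10. There were 5 without exposed dish 2, where 1491 of 12035 genes had such a p, and 10 without exposed dish 3, where 1708 of 12055 did. The difference in porin shares ran from −0.66 to −0.11 (Vdac1), −0.10 to 0.30 (Vdac2) and 0.02 to 0.58 percentage points (Vdac3) with a dish left out, and that of the Slc25a5 share from 0.21 to 0.60. Beyond the dish and scaling choices, the cause of a moved value was not tested.

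Same-numbered dishes did not deviate together (correlations of −0.04 to 0.03, 0 of 4 highest with their own number). With the replicate block, 5 members had an unadjusted p under 0.05, all higher in exposed dishes, where 1430 of 12122 genes had such a p and were higher. Under that block 0 genes were called. Depth is not known from TPM, and differences of a few percent rest on 4 dishes a group.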
